A study of Mus musculus with 6 samples.

Results

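Epithelial-mesenchymal transition (EMT) is the program by which cells held together in a sheet loosen their junctions and take on traits of migratory cells. The 10 genes described here are members of it: the repressors Snai1, Snai2, Zeb1 and Zeb2, the cadherins Cdh1 and Cdh2, the filament gene Vim, and the epithelial guardians Esrp1, Ovol1 and Grhl2. They were taken by gene symbol from the deposited count table, which lists 25655 genes, and all 10 were found and tested. The SNAI and ZEB proteins are zinc finger factors that bind short DNA sequences called E-boxes and are best known for silencing the E-cadherin gene Cdh1. In the mammary gland, SNAI2 is a factor of the basal layer, where epithelial cells carry some mesenchymal traits without leaving the epithelium. GRHL2 and OVOL1 are transcription factors that hold the epithelial state, partly by opposing ZEB1, and ESRP1 directs epithelial splicing.

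All libraries came from passage 29 of Comma-Dβ, a mouse mammary epithelial cell line. In the NT arm, 3 libraries came from cells given an ON-TARGETplus non-targeting siRNA pool. In the siID4 arm, 3 libraries came from cells given a siGENOME SMARTpool against mouse Id4, which encodes an inhibitor of the helix-loop-helix factors that bind E-boxes. Both arms received 20 nM siRNA with the same transfection reagent and were harvested after 48 hr. The comparison asks how lowering ID4 changed gene expression. The pools come from different product lines in every library, so an effect of the pool and an effect of Id4 cannot be told apart.

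Library totals were between 19.2 and 23.1 M expected counts. Levels are given as CPM, counts scaled to the TMM-adjusted library size. Id4 fell from 122 ± 11.5 to 56.6 ± 7.41 CPM (mean ± SD, n = 3 per arm), a log2 change of −1.11 at an edgeR adjusted p of 8.65e-04, so the target was lowered and not removed. A gene was called when the edgeR quasi-likelihood test, adjusted by Benjamini-Hochberg over 13941 genes, gave an adjusted p under 0.05. Of all genes tested, 9.55% were called, 4.62% as risen and 4.93% as fallen. Of the called genes 48.4% rose, and 59.5% did with library totals in place of TMM scaling. The line's epithelial markers were abundant, with a summed level over 8 genes of 2696 to 3104 CPM in NT and 2405 to 2777 CPM in siID4. Of these 8 genes 1 rose and 2 fell, or 37.5% beside 9.55% of all genes. Their log2 changes were below 0 in 87.5%, beside 49.8% over all genes. A second fit, described below, called 1 as risen and 6 as fallen, or 87.5% beside 36.1% of all genes. Leukocyte markers summed to at most 3.90 CPM, endothelial markers to at most 1.94 CPM and adipocyte markers to at most 0.408 CPM in any library.

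With Id4 lowered, the cells held more Snai2 and Zeb2 mRNA, which encode repressors of E-cadherin, and also more E-cadherin mRNA itself. Vim, the classical mesenchymal filament gene, was lower. Of the 10 genes, 3 rose (Snai2, Zeb2 and Cdh1), 1 fell (Vim) and 6 did not pass. The changes were small, between 18.1% and 25.8% upward and 23.4% downward for the genes called. The median log2 fold change over the 10 genes was 0.14, against 0.0008 over all genes tested. The genes were chosen with earlier results of these data known, so their count is a description beside the 9.55% of all genes.

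Libraries with the same replicate number varied together across the arms, and a second fit took the number as a block. That fit called 36.1% of all genes, 17.9% as risen and 18.3% as fallen. Of the 10 genes it called 8, of which 6 rose (Snai1, Snai2, Zeb1, Zeb2, Cdh1 and Cdh2) and 2 fell (Vim and Ovol1). Esrp1 and Grhl2 passed in neither fit. The arms did not overlap for 7 of the 10 genes, 5 with siID4 above NT and 2 below, where 30.9% of all genes tested had arms apart. In the 6 fits that left out one library, Vim kept its call in 4 and Snai2, Zeb2 and Cdh1 in 2 each. Those fits had 6 or 7 of the 10 genes at an unadjusted edgeR p under 0.05, as the fit to all libraries had 7. The share of all genes under that unadjusted p was not computed. These counts, and those of the lists below, therefore have no background beside them.

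**Figure D1:**
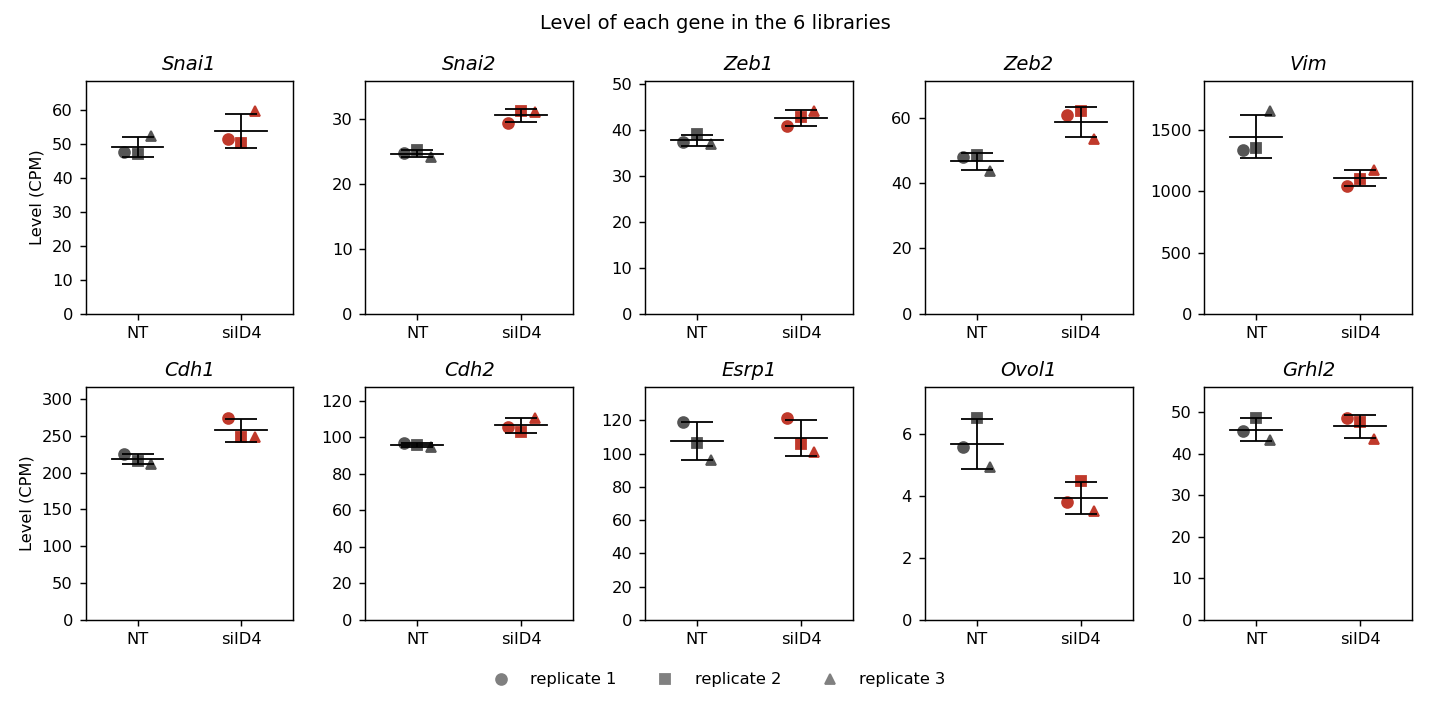
Level of each gene in CPM (linear axis from 0) in the 3 NT and the 3 siID4 libraries, with marker shape for the replicate number, a horizontal bar for the mean and an error bar for the SD. The siID4 points lie above all NT points for Snai2, Zeb1, Zeb2, Cdh1 and Cdh2, below them for Vim and Ovol1, and overlap with them for Snai1, Esrp1 and Grhl2.

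The genes differed widely in level. Per kilobase of gene length (RPKM), the NT order was Vim (884 ± 109), Cdh1 (49.4 ± 1.56), Esrp1 (33.9 ± 3.61), Snai1 (30.2 ± 1.81), Cdh2 (23.5 ± 0.247), Snai2 (12.2 ± 0.263), Grhl2 (10.4 ± 0.628), Zeb2 (9.47 ± 0.548), Zeb1 (8.99 ± 0.276) and Ovol1 (1.96 ± 0.278), each as mean ± SD over 3 libraries. The ranges of Esrp1 and Snai1 overlapped, as did those of Grhl2 with Zeb2 and of Zeb2 with Zeb1. All other neighbours in that order were apart. In siID4 the order was the same except that Zeb2 (11.9 ± 0.945 RPKM) stood before Grhl2 (10.5 ± 0.614 RPKM), with ranges that overlapped. Every library of both arms thus held mRNA of the epithelial cadherin and of all 4 repressors.

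**Figure D2:**
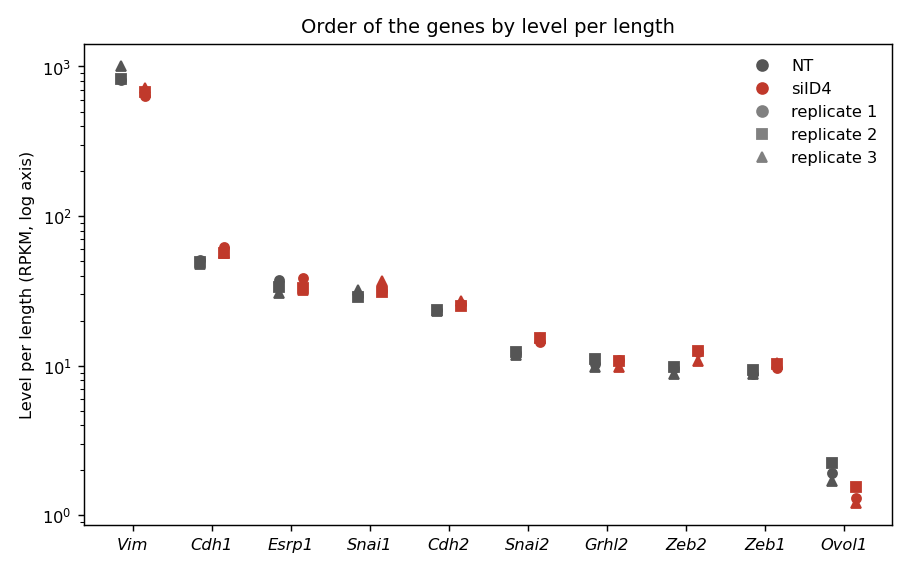
Level per kilobase of gene length (RPKM, log axis) of the 10 genes, ordered by their NT mean, with one point per library in grey for NT and red for siID4. Vim lies far above the rest (638.9 to 1010 RPKM over the 6 libraries) and Ovol1 far below (1.21 to 2.25 RPKM), while the other genes lie between 8.79 and 62.3 RPKM.

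The 4 repressors all had positive log2 fold changes, and of these Snai2 and Zeb2 passed. Upstream sequence was at hand for Snai1 and Zeb2 (RefSeq, GRCm38.p6) and is shown because the proteins that ID4 holds in check, and the SNAI and ZEB factors themselves, bind E-boxes. Each run is the 250 bases before the annotated start, 5′ to 3′ on the gene's strand, with CANNTG in capitals. For Snai1 it spans chr2:167537945-167538194 on the plus strand, and for Zeb2 chr2:45117443-45117692 on the minus strand, before the start that lies farthest upstream.
Snai1: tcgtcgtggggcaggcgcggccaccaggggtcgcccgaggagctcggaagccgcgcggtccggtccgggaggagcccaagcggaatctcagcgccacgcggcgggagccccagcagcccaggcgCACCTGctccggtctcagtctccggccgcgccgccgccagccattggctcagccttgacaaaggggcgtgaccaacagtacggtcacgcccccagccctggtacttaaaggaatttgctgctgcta
Zeb2: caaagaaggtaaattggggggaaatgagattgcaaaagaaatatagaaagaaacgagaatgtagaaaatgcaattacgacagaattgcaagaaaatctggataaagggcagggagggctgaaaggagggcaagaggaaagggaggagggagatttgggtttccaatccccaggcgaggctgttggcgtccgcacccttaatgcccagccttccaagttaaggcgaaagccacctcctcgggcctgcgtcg
The Snai1 window holds 1 CANNTG, which is CACCTG and begins 126 bases before the start. The Zeb2 window shown holds 0, as do the windows before the other 3 Zeb2 starts in the table and the window before Vim. Among those Zeb2 windows, chr2:45113280-45113529 and chr2:45113254-45113503 share most of their bases, so they are not separate sequences. Both strands are covered, since CANNTG reads the same on the other strand and CAGGTG and CACCTG are each other's reverse complement. Among 32851 such windows 66.2% hold at least 1 CANNTG. The forms bound by SNAI and ZEB factors, CAGGTG or CACCTG, are a subset of CANNTG and stand in 17.2% of the windows. These matches describe letters and show no binding.

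Snai2 (ENSMUSG00000022676) encodes SLUG, the repressor most used by basal mammary cells, and sits on chromosome 16 of GRCm38 (14705852 to 14709385, plus strand). Its level was 24.7, 25.2 and 24.1 CPM in NT replicates 1 to 3 and 29.4, 31.2 and 31.1 CPM in the same siID4 replicates. Every siID4 library stood above every NT library, and the spread within each arm was small. In the edgeR fit this was a log2 fold change of 0.31 with an SE of 0.065 and an adjusted p of 0.0200. Snai2 did not pass without NT replicate 2 (adjusted p = 0.0659), NT replicate 3 (0.0658), siID4 replicate 2 (0.101) or siID4 replicate 3 (0.0619), with a log2 fold change from 0.29 to 0.34 over the 6 fits.

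Snai1 (ENSMUSG00000042821), the relative that often starts an EMT, sits on chromosome 2 (167538195 to 167542814, plus strand). It stood at 47.7, 46.9 and 52.4 CPM in NT and 51.5, 50.4 and 59.5 CPM in siID4. The arms overlapped, and replicate 3 was the highest library in both. Its log2 fold change of 0.13 had a 95% interval of −0.045 to 0.31 and an edgeR adjusted p of 0.334, and with the replicate block the adjusted p was 0.0196. The ratio of Snai1 to Snai2 per length was 2.41, 2.34 and 2.72 in NT and 2.19, 2.02 and 2.40 in siID4. These ranges overlapped, and the ratio was lower in siID4 in all 3 same-numbered pairs.

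Zeb2 (ENSMUSG00000026872), a large zinc finger and homeodomain repressor, sits on chromosome 2 (44983632 to 45117395, minus strand). The NT libraries held 47.9, 48.5 and 43.6 CPM and the siID4 libraries 60.7, 62.0 and 53.3 CPM. Replicate 3 was the lowest in both arms, and the lowest siID4 library was above the highest NT library. Zeb2 thereby rose by 0.33 on the log2 scale, with an SE of 0.075 and an edgeR adjusted p of 0.0263. It did not pass without NT replicate 2 (adjusted p = 0.0707), NT replicate 3 (0.0701), siID4 replicate 1 (0.0712) or siID4 replicate 2 (0.129). The antisense transcript Zeb2os overlaps the gene at a mean of 0.863 CPM over the 6 libraries, against 52.7 CPM for Zeb2.

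Zeb1 (ENSMUSG00000024238), the partner repressor that represses and is opposed by GRHL2, sits on chromosome 18 (5591860 to 5775467, plus strand). Its levels were 37.2, 39.1 and 36.9 CPM in NT and 40.8, 42.9 and 44.0 CPM in siID4. The arms were apart by a narrow gap. With a log2 fold change of 0.17 and an SE of 0.062 Zeb1 did not pass (edgeR adjusted p = 0.116), and the replicate block gave an adjusted p of 0.0107. Per length, the ratio of Zeb2 to Zeb1 was 1.10, 1.06 and 1.01 in NT and 1.27, 1.23 and 1.03 in siID4. Its ranges overlapped between the arms, and it was higher in siID4 in all 3 same-numbered pairs. The difference between the responses of these relatives was not tested.

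Of the cadherins of the EMT switch, Cdh1 rose and Cdh2 did not pass. Cdh1 (ENSMUSG00000000303), which encodes the E-cadherin of epithelial adherens junctions, sits on chromosome 8 (106603351 to 106670246, plus strand). NT replicates 1 to 3 held 225.6, 216.3 and 212.1 CPM, and the siID4 replicates held 274.9, 248.4 and 249.0 CPM. All siID4 libraries stood above the highest NT library, and siID4 replicate 1 was the highest of the 6. Cdh1 rose by 0.24 on the log2 scale (SE 0.053) at an edgeR adjusted p of 0.0234. The call was lost without NT replicate 2 (adjusted p = 0.0964), NT replicate 3 (0.0619), siID4 replicate 1 (0.0629) or siID4 replicate 2 (0.0636).

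Cdh2 (ENSMUSG00000024304) encodes N-cadherin, the form that replaces E-cadherin in a full EMT, and sits on chromosome 18 (16588877 to 16809246, minus strand). It stood at 96.7, 96.0 and 94.7 CPM in NT and 105.6, 102.9 and 110.8 CPM in siID4. The NT libraries lay within a few CPM of each other, below all siID4 libraries. Its log2 fold change of 0.15 (SE 0.047) did not pass, at an edgeR adjusted p of 0.0736. Cdh2 passed with library totals (adjusted p = 0.0390) and with the replicate block (5.23e-04). The ratio of Cdh1 to Cdh2 per length was 2.16, 2.08 and 2.07 in NT and 2.41, 2.23 and 2.08 in siID4. E-cadherin mRNA was the more abundant in every library. The ratio's ranges overlapped between the arms, and within numbers it was higher in siID4 in all 3 pairs, by little in replicate 3.

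Vim (ENSMUSG00000026728) encodes vimentin, the intermediate filament protein of mesenchymal cells, which cultured epithelial lines often express too. Its position is chromosome 2, 13573927 to 13582826, plus strand. NT held 1338, 1351 and 1654 CPM and siID4 held 1046, 1104 and 1175 CPM. NT replicate 3 stood above the other NT libraries, replicate 3 was also the highest siID4 library, and the arms were apart. Vim fell by 0.39 on the log2 scale (SE 0.085) at an edgeR adjusted p of 0.0253, and without NT replicate 3 the value was −0.28 (adjusted p = 0.0182). The call was lost without siID4 replicate 1 (adjusted p = 0.0792) and without siID4 replicate 2 (0.114). The ratio of Vim to Cdh1 per length was 16.0, 16.8 and 21.0 in NT and 10.3, 12.0 and 12.7 in siID4, with no overlap. Every siID4 library had less Vim and more Cdh1 than any NT library, so this ratio could not overlap. In bulk RNA, fewer cells that express a gene and less mRNA per cell cannot be told apart, which holds for every gene here.

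**Figure D3:**
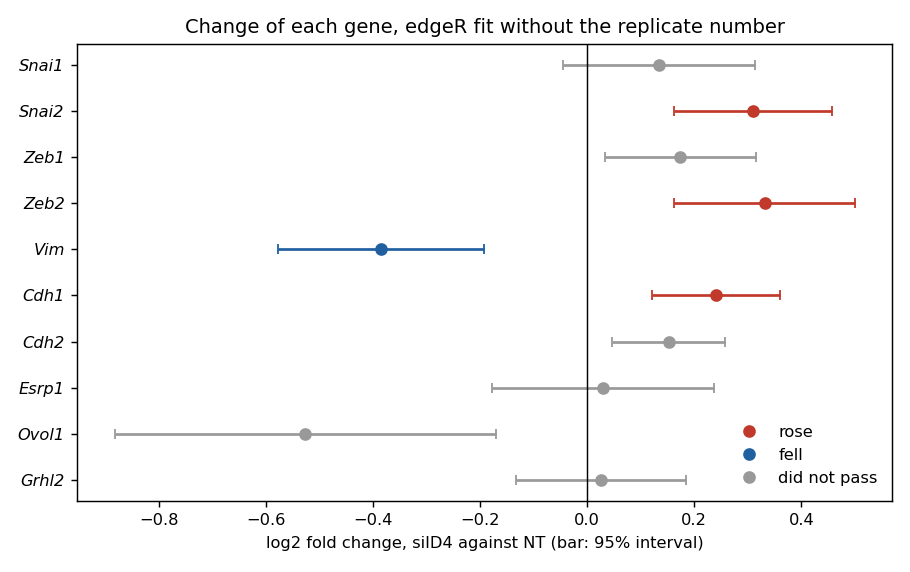
Log2 fold change of siID4 against NT for each gene in the fit without the replicate number (point), with its 95% interval from the same fit (bar), in red for genes that rose, blue for genes that fell and grey for those that did not pass. The called genes have values of 0.24 to 0.33 upward and −0.39 downward, and the widest interval is that of Ovol1 (−0.88 to −0.17).

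The 3 epithelial guardians did not share a pattern. Ovol1 (ENSMUSG00000024922), a zinc finger repressor of mesenchymal genes, sits on chromosome 19 (5549136 to 5560646, minus strand). It was the gene of lowest level, with 80 to 125 counts per library. NT held 5.57, 6.53 and 4.93 CPM and siID4 3.80, 4.48 and 3.51 CPM. The arms did not overlap, and replicate 2 was the highest and replicate 3 the lowest in both. Its log2 fold change of −0.53 (SE 0.16) was the largest of the 10 genes in size, and it did not pass (edgeR adjusted p = 0.0688), while the replicate block gave an adjusted p of 0.00129. Without NT replicate 2 the value was −0.42 and the adjusted p 0.217.

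Grhl2 (ENSMUSG00000022286), which binds and activates the genes of epithelial junctions including Cdh1, sits on chromosome 15 (37233036 to 37363569, plus strand). Its levels were 45.5, 48.7 and 43.2 CPM in NT and 48.7, 47.6 and 43.5 CPM in siID4. The arms lay over each other. Grhl2 had a log2 fold change of 0.026, a 95% interval of −0.13 to 0.19 and an edgeR adjusted p of 0.865. The antisense gene Gm16136 overlaps Grhl2 at a mean of 4.77 CPM over the 6 libraries, and the strand setting of the counting is not given in the sources used here.

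Esrp1 (ENSMUSG00000040728), on chromosome 4 (11331933 to 11386783, minus strand), encodes the splicing regulator that keeps epithelial isoforms of receptors and adhesion proteins. NT held 119.1, 106.5 and 96.2 CPM and siID4 121.7, 105.5 and 101.0 CPM. In both arms replicate 1 was the highest and replicate 3 the lowest, and the same-numbered libraries nearly matched. The fitted log2 fold change of 0.029 had a 95% interval of −0.18 to 0.24 and an edgeR adjusted p of 0.883. Whether splicing itself differed was not analysed here, since the table gives counts per gene.

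Setting same-numbered libraries side by side, 6 of the 10 genes were higher in siID4 in all 3 pairs and 2 were lower in all 3. The share of all genes with the same direction in all 3 pairs was not computed, so this count is a description. The differences in log2 CPM for replicates 1 to 3 were 0.25, 0.31 and 0.37 for Snai2. For Zeb2 they were 0.34, 0.35 and 0.29. For Cdh1 they were 0.29, 0.20 and 0.23. Those of Ovol1 were −0.54, −0.53 and −0.48, from 80 to 125 counts per library and with an SE of 0.16 in the main edgeR fit. Vim had −0.35, −0.29 and −0.49, and Esrp1 had 0.032, −0.014 and 0.071, on both sides of 0.

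**Figure D4:**
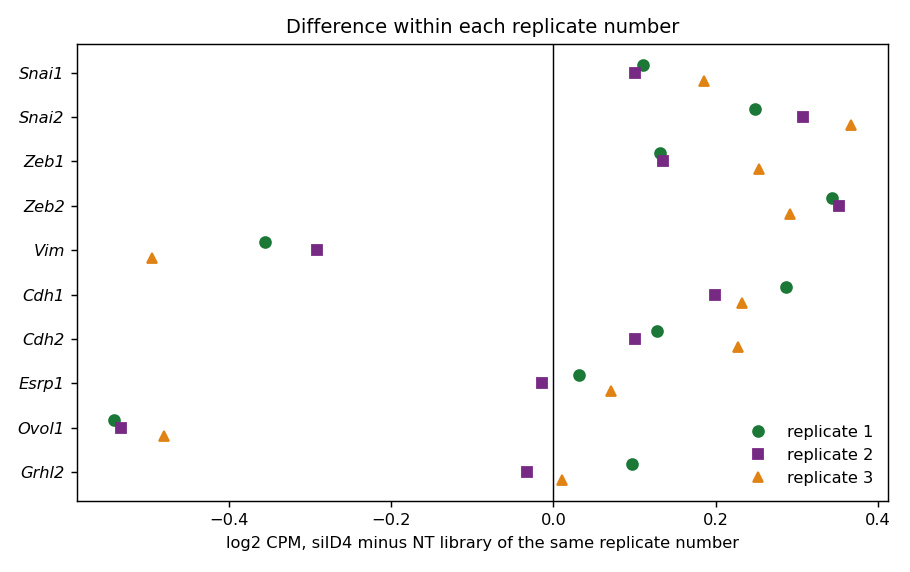
Difference in log2 CPM between the siID4 and the NT library of the same replicate number, with one point per number. All points lie right of 0 for the 4 repressors and both cadherins (0.10 to 0.37) and left of it for Vim and Ovol1 (−0.54 to −0.29), and lie on both sides for Esrp1 and Grhl2.

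The search for similar patterns covered 10277 tested genes whose mean reached 5 CPM. It left out mitochondrially encoded genes and those with clone or predicted model symbols. For each called gene, the 3 most similar had the smallest root mean square difference of log2 deviations from the own mean over the 6 libraries. For Snai2 they were Foxo4 (0.0220), Uhmk1 (0.0243) and Alg2 (0.0256). For Zeb2 they were Ptger4 (0.0269), Fam114a1 (0.0278) and Dock6 (0.0303). For Vim they were Rps6ka4 (0.0343), Lipg (0.0391) and Ankrd13b (0.0398). For Cdh1 they were Fat1 (0.00681), Neo1 (0.0236) and Zfp532 (0.0245). Fat1, which encodes a giant protocadherin, thus tracked Cdh1 most closely, with means of 591 and 695 CPM in NT and siID4. Its log2 change was 0.23 (edgeR adjusted p = 0.0225). Genes selected for likeness to a called gene must change much as it does, so these values are no separate result.

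Of 20 other transcription factors that promote EMT, 18 were tested, 3 rose and the other 15 did not pass, with a median log2 fold change of 0.022. The called share was 16.7%, beside 9.55% of all genes. Sox4 (0.25, edgeR adjusted p = 0.0198), Zfp281 (0.26, adjusted p = 0.0385) and Prrx2 (0.69, adjusted p = 0.0406) rose. Hmga2, a chromatin protein that can induce Snai1, stood at −0.29 (adjusted p = 0.0706) and passed with DESeq2 (0.0195). Its arms overlapped, and it did not pass with the replicate block (edgeR adjusted p = 0.129). With the replicate block 7 rose and 2 fell, or 50.0% beside 36.1% of all genes. Leaving out NT replicate 2 or siID4 replicate 2 left 0 genes of the list called by edgeR. At an unadjusted edgeR p under 0.05 there were 6 and 5. Over all genes, the fit without NT replicate 2 called 291 as risen and 340 as fallen. Without siID4 replicate 2 these were 221 and 224, where the fit to all libraries called 644 and 687. Over the 6 fits lacking a library Sox4 was called in 3, Prrx2 in 2 and Zfp281 in 1. When genes of low count were kept in the test, the adjusted p of Prrx2 was 0.102. It stood at 26.5, 22.0 and 17.7 CPM in NT and 39.2, 39.2 and 28.5 CPM in siID4, with replicate 3 lowest in both arms.

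Of 18 other epithelial regulators, 15 were tested, 2 rose and the other 13 did not pass, with a median of −0.14. The called share was 13.3%, beside 9.55% of all genes. With the replicate block 2 rose and 5 fell, or 46.7% beside 36.1% of all genes. Gata3, a luminal factor, rose by a log2 fold change of 0.36 (edgeR adjusted p = 0.0131), and Trp63, the factor of the basal layer, rose by 0.27 (adjusted p = 0.0279). Tfap2c had −0.25 (adjusted p = 0.0787) and Klf4 −0.23 (adjusted p = 0.240). Gata3 was called in 4 and Trp63 in 2 of the 6 fits lacking a library. Leaving out NT replicate 2 or siID4 replicate 2 left 0 of these regulators called by edgeR. Each time 3 had an unadjusted edgeR p under 0.05. Leaving out NT replicate 3 or siID4 replicate 1 left 1 called. Each of these fits also called fewer of all genes than the fit to all libraries did.

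Among 20 other cadherins, catenins and nectins, 16 were tested, 1 rose, 2 fell and 13 did not pass, with a median of 0.094. The called share was 18.8%, beside 9.55% of all genes. With the replicate block 8 rose and 5 fell, or 81.2% beside 36.1% of all genes. In the fit without the block, the gene that rose was Cdh15, which encodes M-cadherin, known from skeletal muscle precursors. It stood at 9.54, 8.56 and 10.4 CPM in NT and 21.5, 22.0 and 25.4 CPM in siID4, so each siID4 library held more than any NT library. Its log2 fold change of 1.27 (SE 0.11, edgeR adjusted p = 3.91e-04) passed in all 6 fits without one library, and was larger in size than that of any of the 10 genes. Ctnnal1, an alpha-catenin relative, fell (−0.28, adjusted p = 0.0101), as did Afdn, the afadin that anchors nectins (−0.19, adjusted p = 0.0412, and 0.0671 with library totals). Ctnnd1, the p120 catenin that keeps cadherins at the membrane, had 0.17 (adjusted p = 0.0508) and passed with library totals (0.0289), upper quartile scaling (0.0432), DESeq2 (0.0349) and a mean of at least 5 CPM (0.0349). The list held 1 called gene without NT replicate 2, a fit that also called fewer of all genes. There Ctnnal1 had an edgeR adjusted p of 0.0545. Afdn was called in 1 of the 6 fits lacking a library.

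The effector genes of the epithelial state, such as junction and keratin genes, numbered 32, of which all were tested, 3 fell and the other 29 did not pass. The median was −0.11, and 65.6% of the values were below 0, as were 49.8% over all genes tested. The count that rose was 0 by edgeR, DESeq2 and limma-voom alike, and at an unadjusted p under 0.05 edgeR had 1 up and 8 down. A share of 9.38% called is close to the 9.55% of all genes. Evpl and Ppl, which encode plakins of the desmosome and cornified envelope, fell by 0.41 and 0.32 on the log2 scale (edgeR adjusted p = 0.0162 and 0.0150), and Epcam, an epithelial adhesion gene, fell by 0.25 (adjusted p = 0.0211). Ppl kept its call in 5 and Evpl and Epcam in 4 of the 6 fits lacking a library. Ap1m2, a sorting adaptor of epithelial cells, had −0.24 (adjusted p = 0.0928). With the replicate block 2 rose and 9 fell, or 34.4% beside 36.1% of all genes. Without siID4 replicate 2 edgeR called 0 of the list, with 4 at an unadjusted p under 0.05. That fit also called fewer of all genes.

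Among the effector genes of the mesenchymal state, 28 were listed, 26 were tested, 12 rose, 2 fell and 12 did not pass. The called share was 53.8% beside 9.55% of all genes, with 46.2% risen beside 4.62%, and a median log2 fold change of 0.28 against 0.0008 over all genes (92.3% called with the replicate block, 18 up and 6 down, beside 36.1% of all genes). The list's matrix and contractile genes were known to rise from earlier results of these data, so the count is a description. Col1a1, the main chain of collagen I, went from 1171 ± 69.8 to 1817 ± 31.3 CPM (0.63, edgeR adjusted p = 3.91e-04), Col5a1 rose by 0.56 and the matrix gene Sparc by 0.30. Itgav, the alpha V integrin chain, fell from 182 ± 5.38 to 122 ± 4.82 CPM (−0.58, adjusted p = 3.91e-04). The other gene that fell was Nes, which encodes the intermediate filament protein nestin (−0.54, adjusted p = 0.0224), named after its values were seen. Col1a1, Col5a1, Sparc and Itgav kept their calls in all 6 fits lacking a library, and leaving out NT replicate 2 or siID4 replicate 2 left 9 of the list's genes called. Fibroblast markers summed to 100.1 to 142 CPM in NT and 72.8 to 108 CPM in siID4, a sum made up mostly of Dcn and Pdgfra, with Lum and Pi16 under 0.3 CPM in all 6 libraries. Of 5 such markers tested Pdgfra fell and the other 4 did not pass. The median log2 fold change over the 5 was 0.28, with 3 values above 0 and 2 below. With the replicate block 2 of them rose and 2 fell. The part of these markers in the results above was not tested.

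Genes of the TGF-β pathway, the best known inducer of SNAI and ZEB genes, were tested for all 12 on the list. Of these 2 rose and the other 10 did not pass, with a median of 0.0215. The called share was 16.7%, beside 9.55% of all genes. With the replicate block 5 rose and 1 fell, or 50.0% beside 36.1% of all genes. Tgfbr2, the type II receptor, went from 273 ± 14.7 to 337 ± 16.7 CPM (0.30, edgeR adjusted p = 0.0108), and the ligand gene Tgfb3 rose by 0.36 (adjusted p = 0.0228). The pathway's repressors Skil (0.14, adjusted p = 0.126) and Ski (−0.16, adjusted p = 0.142) did not pass. Tgfbr2 was called in 4 and Tgfb3 in 2 of the 6 fits lacking a library. Leaving out NT replicate 2 or siID4 replicate 2 left 0 of these genes called by edgeR. At an unadjusted edgeR p under 0.05 there were 4 and 2. Leaving out NT replicate 3 or siID4 replicate 1 left 1 called. All of these fits also called fewer of all genes than the fit to all libraries did.

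**Figure D5:**
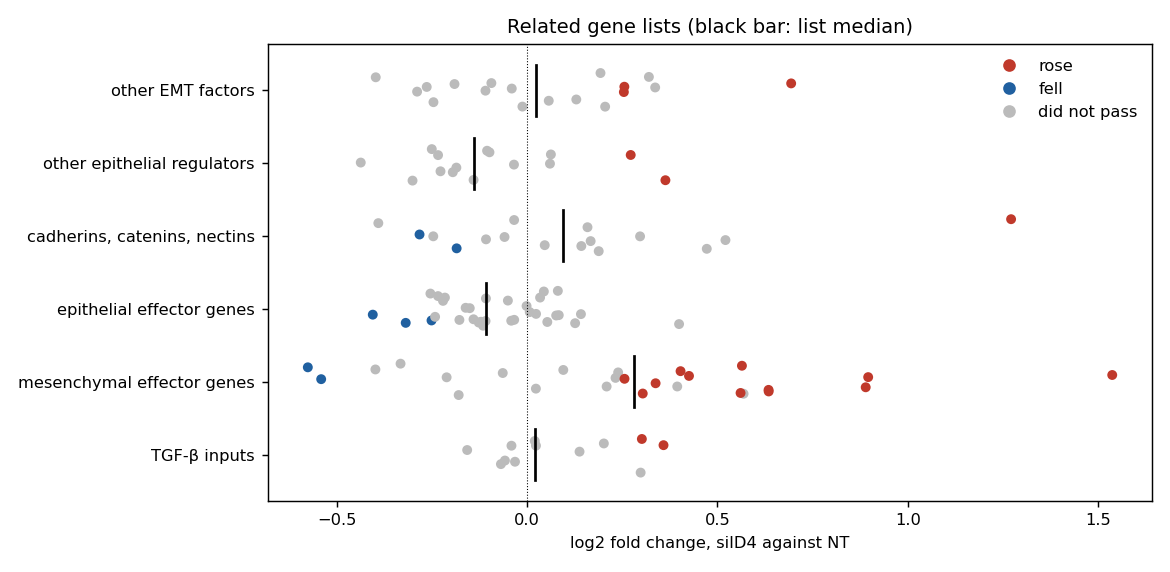
Log2 fold change of siID4 against NT for each tested gene of the 6 related lists (vertical jitter is for legibility), in red for genes that rose, blue for genes that fell and grey for those that did not pass, with the list median as a black bar. The medians run from −0.14 for the other epithelial regulators to 0.28 for the mesenchymal effector genes, and Tagln lies farthest right at 1.54.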

How the data were processed

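Expected counts per gene and library, with gene lengths, are the values the authors deposited. Cutadapt, STAR, RSEM and mm10 appear in the submitters' processing notes, with no versions. Annotation release, strand setting and filtering rule: not given in the sources used here. Values were rounded, since 10.0% to 10.6% of a library's values were not whole. Columns were matched to samples by siRNA and replicate number.

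The main test was edgeR 4.0.16 (R 4.3.3), quasi-likelihood, with TMM scaling, filterByExpr, robust dispersions and group as the only term. It was run on simulated data, as were the block fit, DESeq2 and limma-voom. The settings and outcomes of those runs are not given here. They are therefore no evidence on how often these fits call unchanged genes when same-numbered libraries vary together. CPM and RPKM use TMM-scaled library sizes. Pairwise log2 CPM used a prior count of 2. Standard errors come from the F statistic, and intervals from its degrees of freedom. With 3 libraries per arm, 0.1 is the smallest p an exact permutation test can reach. The labels call the replicates biological without saying what separates them.

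Same-numbered libraries deviated together from their arm means in all 3 pairs, with correlations of 0.42, 0.14 and 0.38 across genes, which are not independent replicates, so the replicate number was taken as a pairing in the block fit. Libraries of one arm differed by more than sampling noise, with a chi-square of 5.09 to 13.6 per gene. The biological coefficient of variation was 7.83%.

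Coordinates and overlapping genes are from GENCODE M21 (GRCm38, also called mm10), and upstream sequences from RefSeq on GRCm38.p6, which matched 3 of the 10 genes. The named genes are Id4, the 10 genes, the 4 smallest adjusted p of each related list, and the 3 most similar genes of each called gene. Where a symbol had several rows, the row of highest mean was used. The genes and lists were chosen with earlier results of these data known. The alternatives were DESeq2 size factors, upper quartile scaling, library totals, no filter, a mean of at least 5 CPM, DESeq2 1.42.0, limma-voom 3.58.1, the replicate block and leaving out each library.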

Additional observations from a re-analysis of the deposited data

How the results depend on the processing

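With the replicate number as a block, 2493 genes rose and 2545 fell, where the fit without it gave 644 and 687. For the 10 genes the block gave 6 up and 2 down. By list it called 9 other EMT factors, 7 other epithelial regulators, 13 cadherins, catenins and nectins, 11 epithelial effectors, 24 mesenchymal effectors and 6 TGF-β genes. DESeq2 called 5 other EMT factors and 5 cadherins, catenins and nectins, and a mean of at least 5 CPM also gave 5 of the latter. That filter left Ovol1 out of the test. Leaving out one library gave 221 to 686 genes that rose and 224 to 665 that fell, 0 to 3 of the 10 genes risen and 0 to 1 fallen. By list these fits called 0 to 4 other EMT factors, 0 to 2 other epithelial regulators, 1 to 4 cadherins, catenins and nectins, 0 to 3 epithelial effectors, 9 to 16 mesenchymal effectors and 0 to 2 TGF-β genes. Such a fit has 5 samples, 2 in one arm. Without NT replicate 3 and without siID4 replicate 1, Esrp1 turned to −0.045 and −0.054 and Grhl2 to −0.016 and −0.0059, within ranges of −0.054 to 0.11 and −0.016 to 0.073 over the 6 fits. Of 79 values of the 10 genes under the other alternatives, 74 kept direction and side of the threshold and 5 newly passed, 4 with the block and Cdh2 with library totals. Of 60 values without one library, 42 kept both, 14 lost the call and 4 turned direction. The causes of these shifts were not tested. Ovol1 had the lowest depth of the 10 genes, at 80 to 125 counts per library.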
